A study of Mus musculus with 2 samples.

Results

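The 49 genes of DNA replication and S-phase entry were followed in TgS1 cells, a mouse Schwann cell line with the genotype TTR V30M tg, that is, carrying a mutant human transthyretin transgene. The members were chosen by name from the 55323 gene rows of the table, and all 49 had exactly 1 row. The comparison was between cells kept for a long term in SCM, a medium that the labels do not spell out, and cells of the same line and genotype kept for a long term in DMEM, a standard basal medium. There was 1 library per medium, from total RNA of a single cell line, so the differences below could not be set against replicates and carry no p-value. The SCM library held 36666676 reads on the rows of the table and the DMEM library 29085791.

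The label of the cells was checked first. All 8 Schwann cell markers examined had at least 1 FPKM (fragments scaled by gene length and library total) in 1 or both libraries, with a summed level of 3914 FPKM in SCM and 4082 in DMEM. Of 21 markers of fibroblasts, endothelial cells, macrophages, neurons, melanocytes, muscle and pericytes, 2 reached 1 FPKM, Cd68 and Mitf. Of these 21, Col1a1, Lum, Dpt, Cdh5, Kdr, Adgre1, Rbfox3, Syt1, Tyr and Mlana were at 0 reads in both libraries. The rest had reads in 1 or both, among them Pdgfra (15 in SCM, 50 in DMEM), Snap25 (40 and 18) and Myh11 (33 and 29). The fibroblast list summed to 0.0688 FPKM in SCM and 0.171 in DMEM, and the macrophage list to 1.47 and 1.37 FPKM in SCM and DMEM.

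Entry into S phase is controlled by cyclin D with CDK4 or CDK6 and by cyclin E with CDK2. These kinases phosphorylate the RB family and so release the E2F factors, which switch on many replication genes. Before S phase, CDC6 and CDT1 help to load the MCM helicase onto origins, and CDC45 and the GINS complex then activate it. The primase and the replicative polymerases copy the strands, held by the PCNA clamp that replication factor C loads. In the developing nerve Schwann cells divide before they myelinate, mature Schwann cells are quiescent, and those of injured nerve can divide again.

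Because many of these genes are known targets of E2F factors, the promoters of the members were searched for E2F-type letters. The sequences below are the 200 bases directly before a RefSeq start, on build GRCm38.p6, written in the direction of transcription. Capitals mark E2F-type letters or the CHR-type letters TTTGAA, on either strand. Mcm5 and Mcm6 are shown as helicase genes with overlapping E2F-type letters and Mcm2 as a helicase gene without them in this stretch. Pola1, E2f3 and Rbl1 stand for the polymerases, the E2F genes and the RB family. They lie at chr6:88898781-88898980 (Mcm2, minus strand), chr8:75109309-75109508 (Mcm5, plus strand), chr1:128359706-128359905 (Mcm6, minus strand), chrX:93632156-93632355 (Pola1, minus strand), chr13:29986064-29986263 (E2f3, minus strand) and chr2:157204535-157204734 (Rbl1, minus strand). For E2f3 the RefSeq table holds another start, whose window has none of these letters, and the start with the letters is the one shown. None of the 6 stretches overlaps an exon of the GENCODE M21 annotation.
Mcm2: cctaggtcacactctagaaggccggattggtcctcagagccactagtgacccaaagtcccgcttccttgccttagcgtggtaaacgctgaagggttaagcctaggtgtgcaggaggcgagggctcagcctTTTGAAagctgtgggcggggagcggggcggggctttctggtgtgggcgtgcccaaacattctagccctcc
Mcm5: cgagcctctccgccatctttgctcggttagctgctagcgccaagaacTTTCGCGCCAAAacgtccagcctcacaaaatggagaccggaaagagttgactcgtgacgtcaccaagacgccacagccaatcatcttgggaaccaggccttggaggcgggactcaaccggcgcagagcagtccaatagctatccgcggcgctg
Mcm6: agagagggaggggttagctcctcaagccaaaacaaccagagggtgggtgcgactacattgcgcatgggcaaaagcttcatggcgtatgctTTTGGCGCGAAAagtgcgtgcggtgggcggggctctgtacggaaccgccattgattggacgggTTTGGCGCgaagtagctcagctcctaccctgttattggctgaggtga
Pola1: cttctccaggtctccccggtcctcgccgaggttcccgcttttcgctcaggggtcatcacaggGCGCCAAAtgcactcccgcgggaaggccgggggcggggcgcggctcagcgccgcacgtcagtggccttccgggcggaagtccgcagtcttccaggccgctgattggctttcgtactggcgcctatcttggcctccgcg
E2f3: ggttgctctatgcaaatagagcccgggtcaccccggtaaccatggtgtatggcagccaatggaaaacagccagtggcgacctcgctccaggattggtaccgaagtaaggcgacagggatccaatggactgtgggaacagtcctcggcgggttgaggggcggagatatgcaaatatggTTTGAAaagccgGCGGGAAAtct
Rbl1: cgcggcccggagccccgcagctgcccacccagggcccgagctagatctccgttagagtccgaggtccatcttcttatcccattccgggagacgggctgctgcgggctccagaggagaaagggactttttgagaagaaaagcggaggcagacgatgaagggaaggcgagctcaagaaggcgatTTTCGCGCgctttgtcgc

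The motif searched was TTTCCCGC, TTTGGCGC, TTTCGCGC or TTTGCCGC on either strand, from 250 bases before to 50 bases after a start, and a gene with several starts in the table counted as holding it if any of them did. Of the 49 members, 39 had such a sequence in the RefSeq table, and 17 of these (43.6%) held E2F-type letters, against 2.6% of all 27025 genes in that table. Among 64 other replication genes with a promoter there, 16 (25%) held them. The CHR-type letters TTTGAA, on either strand, were in the promoters of 8 members (20.5%) and of 20.2% of all genes. Member promoters had a median GC content of 63.0%, against 52.8% over all genes, and the part of base composition in these shares was not tested. In Mcm6 the letters TTTGGCGC at -110 to -103 overlap GCGCGAAA, the reverse complement of TTTCGCGC, at -106 to -99, and TTTGGCGC stands again at -47 to -40, counted back from the start. In Mcm5 TTTCGCGC at -153 to -146 overlaps GCGCCAAA at -149 to -142.

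With 1 FPKM added to each level, no measured member was 2-fold apart between the media. That count is close to what the share over all rows would give for so few genes, and plain ratios are given further below. On the scale of log2((SCM FPKM + 1)/(DMEM FPKM + 1)), 38 of the 49 members had at least 1 FPKM in 1 or both libraries and are called measured here. Of these, 0 were at least 2-fold higher in SCM, where 3.1% of all 12334 measured rows were, and 0 were at least 2-fold lower, where 2.8% of all rows were. Their log2 ratios ran from -0.81 for Gins2 to 0.72 for Ccnd1, with a median of -0.06, against -0.03 over all measured rows. Below 0 lay 23 members (60.5%), against 54.2% of all measured rows and 54.4% of the protein-coding ones, to which all members belong. In these bulk libraries a difference in the share of cells in S phase and one in RNA per cell cannot be told apart.

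By role, the members divided as follows, in a grouping of the roles made after the values were seen, which therefore only describes them. Of 11 measured members among cyclins, their kinases, RB family and E2F genes, 9 lay above 0, with a median log2 ratio of 0.25. Of 27 measured members of the replication machinery, from origin licensing to chromatin copying, 21 lay below 0 (77.8%), with a median of -0.11. Over all 12334 measured rows 54.2% lay below 0, with a median of -0.03. All 5 cyclin genes had a ratio above 1, and all 7 measured genes of origin licensing and the helicase a log2 ratio below 0. For Ccnd3, Ccne1, Cdt1, Mcm5 and Mcm6 the 95% interval from the read counts, described further below, held a ratio of 1. Under median-ratio scaling and under upper-quartile scaling, 9 of 11 control members lay above 0 and 20 of 27 machinery members below 0 (74.1%). Computed as TPM (a length-scaled unit with the same total in each library), 8 of then 12 measured control members lay above 0 and 27 of then 32 machinery members below 0. As TPM the median over all measured rows was also lower, at -0.09. Of 20 measured cell cycle control genes outside the members, CDK inhibitor genes included, 10 lay above 0 and 10 below, with a median of -0.01. All 6 measured CDK inhibitor genes were among the 10 above 0, so the genes other than inhibitors lay mostly below 0. Among the 20 genes Lin52, of the DREAM complex, had 3.42 FPKM in SCM and 1.85 in DMEM. Tfdp1, the dimer partner of E2F factors, had 13.8 FPKM in SCM and 20.9 in DMEM, and the phosphatase gene Cdc25a 1.67 FPKM in SCM and 2.90 in DMEM.

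**Figure D1:**
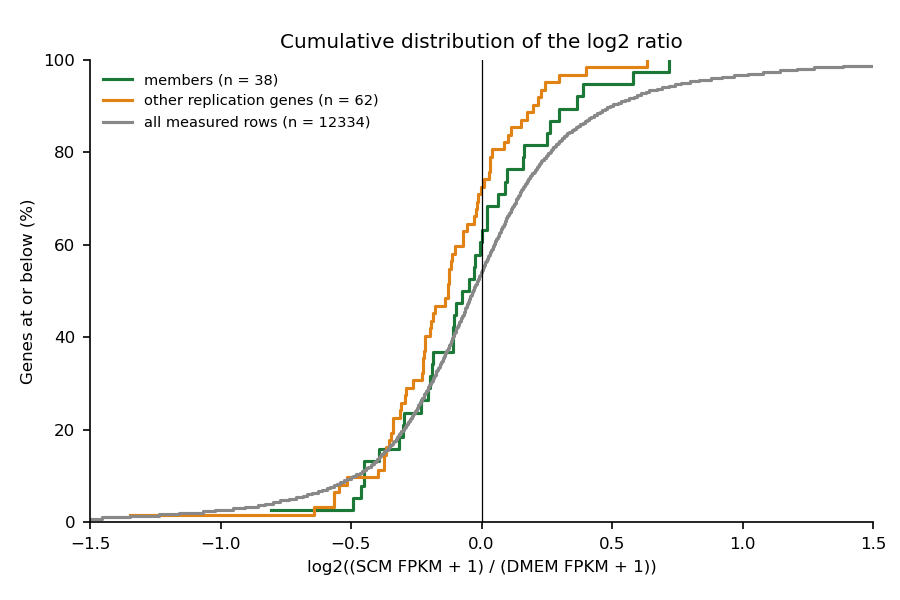
Cumulative share of genes (y axis, percent) at or below each log2((SCM FPKM + 1)/(DMEM FPKM + 1)) (x axis) for the 38 measured members, the 62 measured other replication genes and all measured rows. The line of the members crosses 0 at 60.5%, that of the other replication genes at 72.6% and that of all 12334 rows at 54.2%.

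Many members were at low levels, where the added 1 FPKM keeps the log2 ratio small, so plain FPKM ratios were also taken. Each has a 95% exact (Clopper-Pearson) interval from the read counts. These intervals cover counting error only, and may be too narrow even for that, since copies made during amplification were not told apart. With at least 20 reads in the higher library, as 48 members had, 2 were at least 2-fold higher in SCM (Cdk6 and Tk1), against 7.53% of 14550 such rows (6.36% of protein-coding ones), and 3 at least 2-fold lower (Gins2, Pold1 and Rfc3, the last at the limit), against 5.85% (4.19% of protein-coding ones). Both counts are near the background. At 1.5-fold, 5 members were higher, against 14.2% of rows (12.1% of protein-coding ones), and 8 lower, against 12.9% (10.1% of protein-coding ones). The interval lay above 1 for 10 members, against 29.2% of rows, and below 1 for 17, against 34.4%. A ratio below 1 was found for 29 of the 48 (60.4%), against 52.6% of rows.

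**Figure D2:**
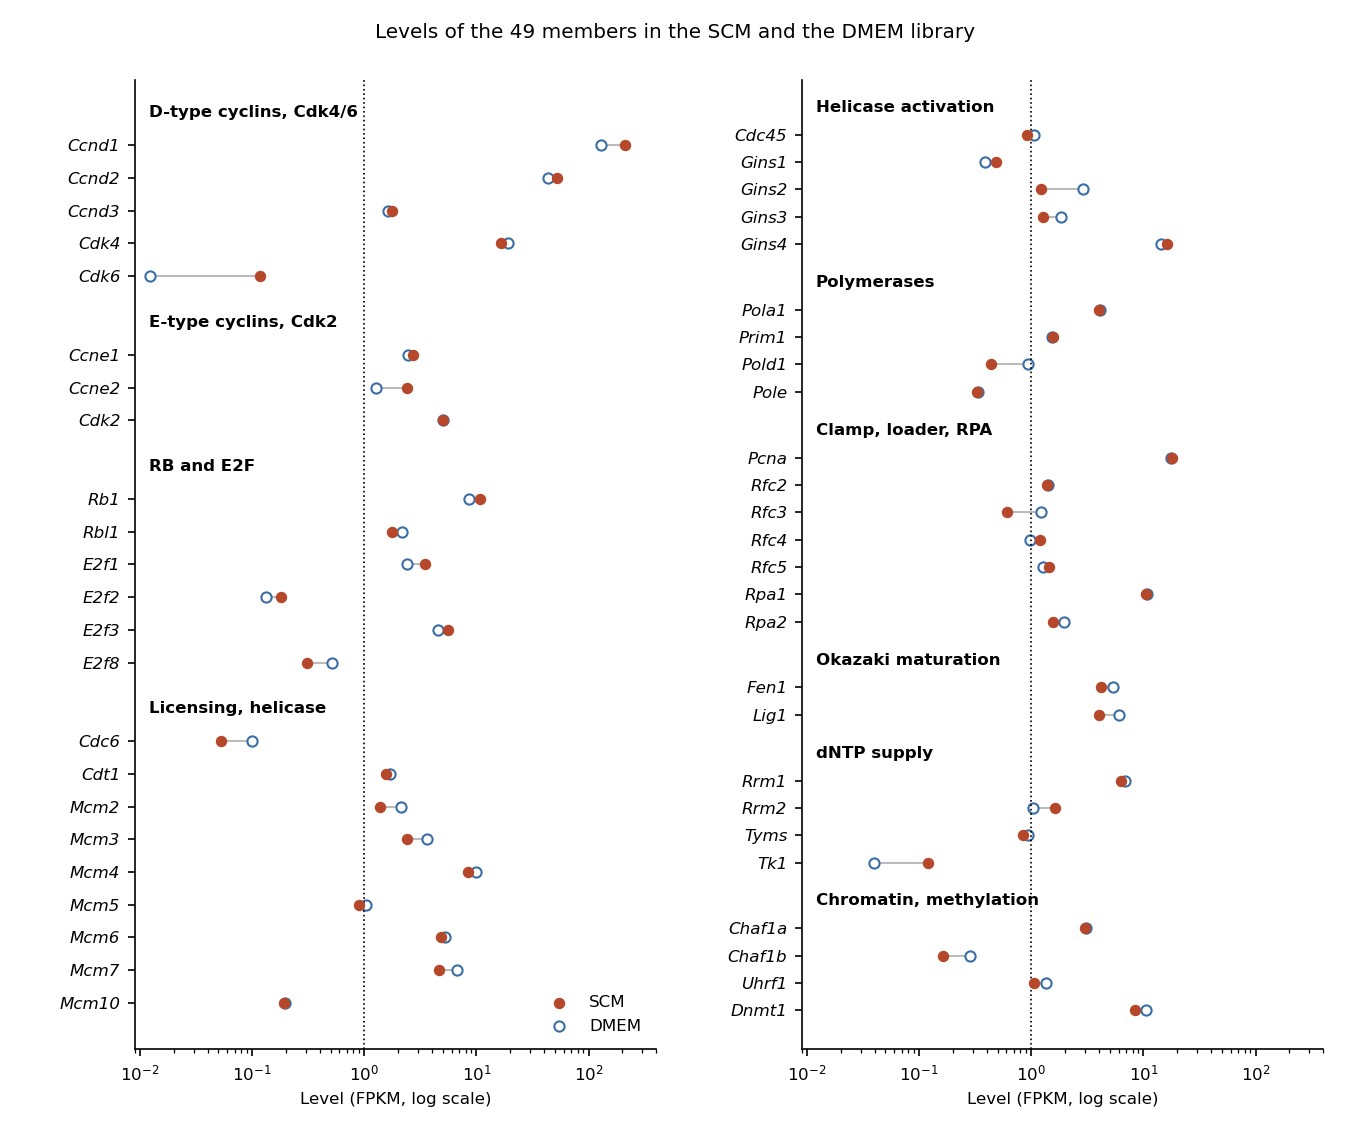
Level of each of the 49 members (x axis, FPKM on a log scale) in the SCM library (filled points) and the DMEM library (open points), by role, with the dotted line at 1 FPKM. Most pairs of points nearly coincide, levels span from 0.0123 FPKM (Cdk6 in DMEM) to 211 FPKM (Ccnd1 in SCM), and Cdk6 and Tk1 are the widest pairs.

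The D-type cyclin genes held the most abundant members, with Ccnd1 higher in SCM. Ccnd1, the cyclin gene through which many mitogen signals act, had 211 FPKM (36439 reads) in SCM and 128 FPKM (17507 reads) in DMEM, 1.65-fold higher (95% counting interval 1.62 to 1.68). It ranked 106 among all rows in SCM and 205 in DMEM. Ccnd2, a second D-type cyclin, had 52.3 FPKM in SCM and 43.4 in DMEM, and Ccnd3, the remaining one, had 1.76 and 1.64 FPKM in SCM and DMEM. The summed level of these 3 genes per length was 265 FPKM in SCM and 173 in DMEM, of which Ccnd1 made up 79.6% in SCM and 74.0% in DMEM. Ccnd1 overlaps the opposite-strand gene LTO1 over 23.4% of its length, and LTO1 stood at 5.84 FPKM in SCM and 4.97 in DMEM.

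Of the kinases that pair with cyclin D, Cdk4 carried nearly all of the signal. Cdk4 had 16.7 FPKM (1991 reads) in SCM and 19.2 FPKM (1811 reads) in DMEM. Cdk6, the other kinase of this pair, had 0.117 FPKM (60 reads) in SCM and 0.0123 FPKM (5 reads) in DMEM, 9.52-fold higher (3.86 to 30.4). That ratio rests on few reads, and Cdk6 made up 0.695% of the summed level of both kinases in SCM and 0.0641% in DMEM. Cdk4 overlaps the opposite-strand gene Tspan31, at 30.8 FPKM in SCM and 28.7 in DMEM, over 19.7% of its length.

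Cyclin E genes were at a few FPKM, and Ccne2 was the one that differed. Ccne2 had 2.40 FPKM (308 reads) in SCM and 1.28 FPKM (130 reads) in DMEM, 1.88-fold higher (1.53 to 2.33). Ccne1, which like Ccne2 encodes an activator of CDK2, had 2.69 FPKM in SCM and 2.47 in DMEM. The order of both genes was the same in either library, but Ccne2 made up 47.1% of their summed level in SCM and 34.1% in DMEM. Cdk2, the kinase itself, had 5.01 FPKM in SCM and 4.99 in DMEM. Ccne2 shares 17.4% of its length with Ints8 on the opposite strand, which had 8.74 FPKM in SCM and 9.57 in DMEM.

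In the RB and E2F group the activator genes E2f1 and E2f3 were higher in SCM and the repressor gene E2f8 lower. E2f1, an activator of replication genes, had 3.48 FPKM (402 reads) in SCM and 2.42 FPKM (222 reads) in DMEM. E2f3, a second activator, had 5.62 FPKM in SCM and 4.55 in DMEM, and the activator E2f2 had 0.179 FPKM (32 reads) in SCM and 0.134 FPKM (19 reads) in DMEM, where the counting interval of the ratio held 1. E2f8, an atypical factor that represses E2F targets, had 0.306 FPKM (61 reads) in SCM and 0.512 FPKM (81 reads) in DMEM, 1.67-fold lower in SCM (1.19 to 2.37). Rb1, the retinoblastoma gene that holds E2F factors in check, had 10.8 FPKM in SCM and 8.61 in DMEM. Its relative Rbl1, which encodes p107, had 1.76 FPKM in SCM and 2.18 in DMEM. No gene of this group was 2-fold apart.

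All 6 genes of the MCM helicase, the ring that unwinds DNA at the fork, were lower in SCM. Mcm2 had 1.39 FPKM (354 reads) in SCM and 2.14 FPKM (432 reads) in DMEM, 1.54-fold lower (1.33 to 1.78). Mcm3 had 2.39 FPKM (329 reads) in SCM and 3.64 FPKM (397 reads) in DMEM, 1.52-fold lower (1.31 to 1.77). Those are the widest differences in the ring. Mcm7 had 4.60 FPKM in SCM and 6.65 in DMEM, and Mcm4 8.34 FPKM in SCM and 9.95 in DMEM. For Mcm5, at 0.895 FPKM in SCM and 1.04 in DMEM, and Mcm6, at 4.82 FPKM in SCM and 5.25 in DMEM, the counting interval of the ratio held 1. The summed level of the 6 genes was 22.4 FPKM in SCM and 28.7 in DMEM, a ratio of 0.782. All 6 stayed below 1 under each of the 3 other scalings tried.

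The ring holds each MCM protein in equal number, but the levels of its transcripts were uneven in both libraries. Per deposited gene length, Mcm4 was the highest and Mcm5 the lowest, 9.32-fold apart in SCM and 9.55-fold in DMEM. The deposited lengths join all exons of a gene, retained introns included, which lowers the level of genes with many such transcripts. Per kilobase of the longest protein-coding transcript the same genes were at the ends, 7.89-fold apart in SCM and 8.09-fold in DMEM. Mcm3, Mcm2 and Mcm5 took the last 3 places in this order in both libraries and by both lengths, whereas Mcm6 and Mcm7 in SCM changed places with the length used.

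**Figure D3:**
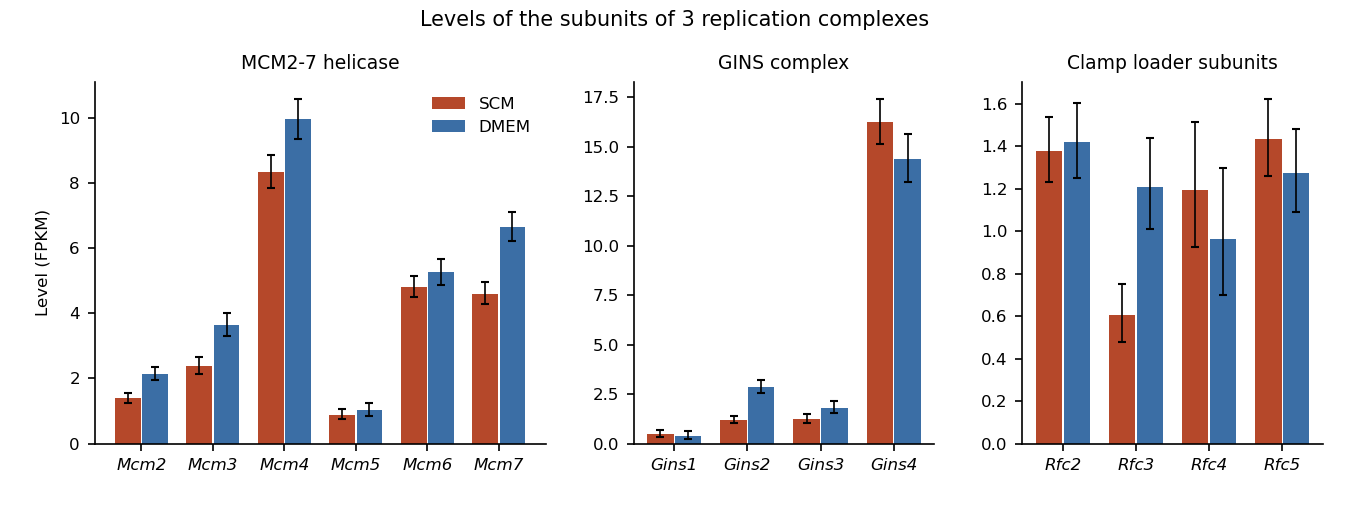
Levels (y axis, FPKM) of the subunit genes of the MCM helicase, the GINS complex and the clamp loader in SCM (left bars) and DMEM (right bars), with 95% exact Poisson counting intervals. All MCM bars are lower in SCM, Gins4 at 16.3 FPKM in SCM and 14.4 in DMEM stands far above the other GINS genes, and Rfc3 is at 0.604 FPKM in SCM and 1.21 in DMEM.

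The other licensing genes were at low levels in both media. Cdt1, a loader of the helicase, had 1.56 FPKM (180 reads) in SCM and 1.70 FPKM (155 reads) in DMEM. Cdc6, which acts with Cdt1, had 0.0522 FPKM (10 reads) in SCM and 0.0986 FPKM (15 reads) in DMEM, too few reads for a ratio to be read. Mcm10, a separate factor needed to start unwinding, had 0.191 FPKM in SCM and 0.197 in DMEM. None of these 3 was distinguishable between the libraries at this depth.

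Among the genes that activate the helicase, Gins2 had the lowest log2 ratio of all measured members. Gins2 had 1.22 FPKM (183 reads) in SCM and 2.88 FPKM (343 reads) in DMEM, 2.36-fold lower (1.97 to 2.84). Over 67.3% of its length Gins2 overlaps Gse1 on the opposite strand, which had 4.37 FPKM in SCM and 4.06 in DMEM. The sources used here do not give the strand setting of the counting, and the part of shared reads in this difference was not tested. Gins3 had 1.27 FPKM (126 reads) in SCM and 1.83 FPKM (144 reads) in DMEM, and Gins1 0.486 FPKM (27 reads) in SCM and 0.386 FPKM (17 reads) in DMEM. Gins4 had 16.3 FPKM (804 reads) in SCM and 14.4 FPKM (565 reads) in DMEM, slightly higher in SCM. GINS contains its 4 subunits in equal number, yet Gins4 held 84.5% of their summed level in SCM and 73.9% in DMEM. Cdc45, the partner of GINS at the helicase, had 0.910 FPKM in SCM and 1.06 in DMEM.

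Of the polymerase genes among the members, Pold1 was lower in SCM and the others were close to a ratio of 1. Pold1, the catalytic subunit of the lagging-strand polymerase delta, had 0.438 FPKM (78 reads) in SCM and 0.927 FPKM (131 reads) in DMEM, 2.12-fold lower (1.59 to 2.84). Pole, the catalytic subunit of the leading-strand polymerase epsilon, had 0.328 FPKM in SCM and 0.336 in DMEM. Pola1, which extends the primer, had 4.0 FPKM (1294 reads) in SCM and 4.10 FPKM (1052 reads) in DMEM. Prim1, the primase, had 1.57 FPKM in SCM and 1.53 in DMEM. The counting intervals of the last 3 ratios held 1, and for Pola1 the interval ran from 0.899 to 1.06. Outside the members, partner subunits were lower in SCM. Prim2 had a ratio of 0.527 (0.448 to 0.621) and Pola2 0.690 (0.608 to 0.782). Pold2 had a ratio of 0.659 (0.569 to 0.763) and Pold3 0.748 (0.690 to 0.811). Pold4, Pole3 and Pole4 had ratios of 0.822, 0.881 and 0.899, the last with an interval that held 1. Pole2 had under 20 reads in both libraries.

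The clamp gene Pcna was nearly level between the media, and so was Rpa1. Pcna, the sliding clamp, had 18 FPKM (1587 reads) in SCM and 17.8 FPKM (1241 reads) in DMEM, a ratio of 1.01 (0.941 to 1.09). In SCM it stood behind Ccnd1 and Ccnd2 alone among the members, and in DMEM also behind Cdk4. A processed pseudogene, Pcna-ps2, matches the Pcna transcript at 99.2% identity over 781 bases, and its row held 55 reads in SCM and 29 in DMEM. Rpa1, the large subunit of the single-strand binding complex, had 10.5 FPKM in SCM and 10.8 in DMEM, and Rpa2, a smaller subunit, 1.58 FPKM in SCM and 1.94 in DMEM, a ratio of 0.812 (0.653 to 1.01). Both RPA ratios had intervals that held 1.

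The clamp loader genes were near 1 FPKM, and Rfc3 was the lower one in SCM. Rfc3 had 0.604 FPKM (80 reads) in SCM and 1.21 FPKM (127 reads) in DMEM, 2.0-fold lower (1.5 to 2.68), right at the 2-fold limit. It was 1.95-fold lower under median-ratio scaling and 1.96-fold lower under upper-quartile scaling, so its 2-fold call is lost there. Rfc2, a fellow subunit, had 1.38 FPKM in SCM and 1.42 in DMEM. Rfc4 had 1.19 FPKM (67 reads) in SCM and 0.964 FPKM (43 reads) in DMEM, and Rfc5 1.43 FPKM in SCM and 1.27 in DMEM. The intervals of Rfc2, Rfc4 and Rfc5 held 1. Rfc4 overlaps Eif4a2, at 64.5 FPKM in SCM and 60.2 in DMEM, on the opposite strand.

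**Figure D4:**
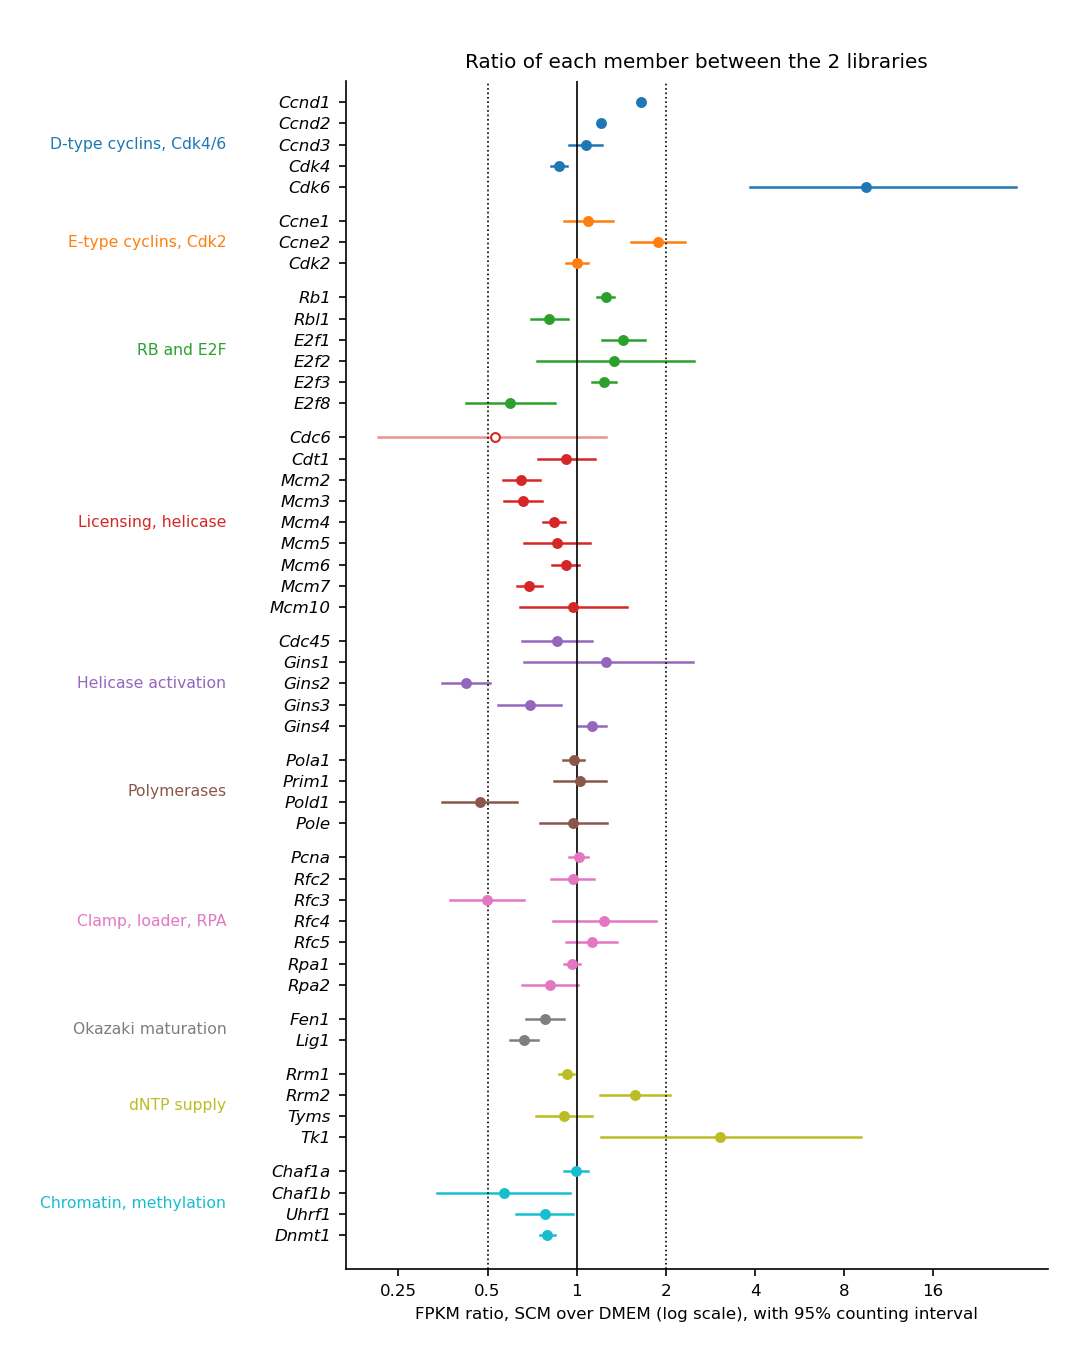
FPKM ratio of SCM over DMEM (x axis, log scale) for each of the 49 members by role, with 95% counting intervals; the open point (Cdc6) had under 20 reads in both libraries and dotted lines mark 2-fold. Cyclins lie at or right of 1, the MCM genes left of 1, and Cdk6 and Tk1 are far right with wide intervals.

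Both genes that finish Okazaki fragments were lower in SCM. Lig1, the ligase that seals the fragments, had 4.06 FPKM (629 reads) in SCM and 6.12 FPKM (752 reads) in DMEM, 1.51-fold lower (1.35 to 1.68). Fen1, the nuclease that trims the flaps, had 4.21 FPKM (374 reads) in SCM and 5.39 FPKM (380 reads) in DMEM. Neither reached 2-fold.

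The genes of deoxynucleotide supply went both ways. Rrm2, the regulated subunit of ribonucleotide reductase, had 1.63 FPKM (166 reads) in SCM and 1.04 FPKM (84 reads) in DMEM, 1.57-fold higher (1.2 to 2.06). Rrm1, the large subunit of the same enzyme, had 6.36 FPKM in SCM and 6.88 in DMEM. Tk1, the cytosolic thymidine kinase of dividing cells, had 0.121 FPKM (23 reads) in SCM and 0.0397 FPKM (6 reads) in DMEM, 3.04-fold higher (1.2 to 9.13). Like Cdk6, it stood far below 1 FPKM in both libraries. Tyms, thymidylate synthase, had 0.838 FPKM (187 reads) in SCM and 0.926 FPKM (164 reads) in DMEM, with an interval that held 1.

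The genes that copy chromatin and DNA methylation behind the fork all had ratios below 1. Dnmt1, the maintenance methyltransferase, had 8.39 FPKM (2270 reads) in SCM and 10.6 FPKM (2265 reads) in DMEM, a ratio of 0.795 (0.750 to 0.843). Uhrf1, which guides DNMT1 to hemimethylated DNA, had 1.05 FPKM in SCM and 1.35 in DMEM. Chaf1b, the middle subunit of the histone chaperone CAF-1, had 0.163 FPKM (28 reads) in SCM and 0.286 FPKM (39 reads) in DMEM, 1.76-fold lower (1.05 to 2.96). Chaf1a, its large subunit, had 3.04 FPKM in SCM and 3.05 in DMEM, and its ratio moved to the other side of 1 under median-ratio and upper-quartile scaling. Over 52.5% of its length Chaf1a overlaps Ubxn6 on the opposite strand, which had 6.35 FPKM in SCM and 6.71 in DMEM. In all, 13 members overlap a measured row, in each case on the opposite strand.

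In a wider list of 79 other replication and S-phase genes, 45 of 62 measured lay below 0 (72.6%), against 54.2% of all measured rows, with a median log2 ratio of -0.13, against -0.03. On that scale 0 were at least 2-fold higher and 1 at least 2-fold lower, where 3.1% and 2.8% of all rows were. In plain FPKM with at least 20 reads, 1 of 75 was at least 2-fold higher, against 7.53% of rows, and 5 at least 2-fold lower, against 5.85%, which is near the background. Mtbp, a partner of TICRR in origin firing, had 1.90 FPKM (381 reads) in SCM and 6.37 FPKM (1016 reads) in DMEM, 3.36-fold lower (2.99 to 3.79). Timeless, a fork protection gene, had 0.424 FPKM (95 reads) in SCM and 1.22 FPKM (217 reads) in DMEM, 2.88-fold lower (2.25 to 3.70). Also lower were the histone chaperone gene Asf1b, at 0.140 FPKM in SCM and 0.412 in DMEM, Chtf18, of an alternative clamp loader, at 0.206 and 0.467 FPKM in SCM and DMEM, and the helicase gene Recql4, at 0.289 and 0.586 FPKM in SCM and DMEM. Ccna2, the S-phase and mitotic cyclin A, was the higher gene, with 0.561 FPKM (84 reads) in SCM and 0.168 FPKM (20 reads) in DMEM, 3.33-fold (2.03 to 5.73). Mtbp and Ccna2 each overlap a measured gene on the opposite strand.

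Inhibitors of the cyclin-dependent kinases ranged widely in level. Cdkn2a, which encodes INK4A and ARF, had 69.4 FPKM in SCM and 65.4 in DMEM, and Cdkn1a, which encodes p21, had 23.6 FPKM in SCM and 23.0 in DMEM. Cdkn2b had 45.0 FPKM in SCM and 36.4 in DMEM and Cdkn1b 21.8 FPKM in SCM and 18.6 in DMEM, while Cdkn2c and Cdkn2d were between 4.19 and 6.31 FPKM and Cdkn1c had 6 reads in SCM and 3 in DMEM. The 6 measured inhibitor genes had log2 ratios from 0.03 to 0.40, of which 1 lay below 0 when computed as TPM.

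Set against the promoter letters, measured members with E2F-type letters had lower log2 ratios than those without. Of 14 with the letters, 12 lay below 0 and the median was -0.20, and of 16 without, 8 lay below 0 and the median was 0.01. Among all protein-coding measured rows with a promoter in the table, 402 held the letters, with a median of -0.08 and 60.7% below 0, and 7757 did not, with a median of -0.03 and 54.8% below 0. The other replication genes had medians of -0.13 over 11 genes with the letters and -0.12 over 41 without. Among the helicase genes Mcm2, with no E2F-type letters in the window, had a ratio of 0.650. Of those with the letters, Mcm3 had a ratio of 0.657, Mcm7 0.692, Mcm5 0.859 and Mcm6, with 3 matches, 0.917. Mcm4 had no promoter in the RefSeq table. These are descriptions of 2 libraries, and no test was made.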

How the data were processed

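Libraries were prepared from total RNA with a stranded kit, per the labels' protocols. The authors deposited FPKM values, scaled by gene length and library total per the values of the table, for 55323 rows. The tools featureCounts 2.0.1, STAR 2.7.9a, cutadapt 3.1, Trimmomatic 0.39 and Trim Galore and the builds GRCm38.p6 and mm10 are listed in the submitters' processing notes. Roles, order and strand setting are not stated there. The columns carry the numbers 3 (SCM) and 1 (DMEM), and other replicates are not analysed here.

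Whole reads were recovered from the FPKM steps, 100% of rows lying within 0.01 of an integer, and were used for intervals, not for a count model. A count of 0 would allow, as 3 reads on a gene of 1 kb, 0.0818 FPKM in SCM and 0.103 in DMEM. Filters were 1 FPKM for log2 ratios and 20 reads for plain ratios. The code for intervals and calls was run on simulated Poisson counts, the error that the intervals assume. That run checks the code and does not measure variation between cultures or libraries. Members and lists were chosen with earlier results of these data known. All members are named, with a ratio and interval given at 1.5-fold or more, and other replication genes at 2-fold; further values were chosen after they were seen. Exon overlaps came from the coordinates within the table; copies were searched with BLAST+ 2.17.0 (95% identity, 500 bases) in GENCODE M21 transcripts. Promoters are from RefSeq, GRCm38.p6. Analyses used Python 3.11.15 and SciPy 1.17.1.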

Additional observations from a re-analysis of the deposited data

How the results depend on the processing

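No paired analysis was possible because there was 1 library per medium, and for the same reason no library could be left out. On the log2 scale with 1 FPKM added, the count of members at least 2-fold apart was 0 higher and 0 lower in the report. It became 1 lower with a pseudocount of 0.1 FPKM, 1 lower as TPM, 1 higher and 1 lower at a threshold of 1.5-fold, and 2 higher and 3 lower in plain FPKM with 20 reads. The median of members ran from -0.16 (TPM) to -0.03 (median-ratio scaling) and stayed below 0 under every alternative run. The median over all rows was below 0 in each run too, from -0.09 (TPM) to -0.004 (median-ratio scaling). For the other replication genes, 1 was lower in the report. The count was 2 with a pseudocount of 0.1, 2 as TPM, 2 at 1.5-fold (with 1 higher), 5 in plain FPKM (with 1 higher), and 0 with a pseudocount of 3 or without overlapping rows, and their median was -0.22 as TPM. With low values these counts follow the pseudocount and the fold limit. The factors by which other scalings divide the SCM to DMEM ratio were -0.03 to 0.06 on the log2 scale, which put Chaf1a (median-ratio and upper-quartile scaling) and Cdk2, Pcna and Prim1 (TPM) on the other side of 1. The scaling that centres rows moved the share of other replication genes below 0 to 64.5%. The ratio of Ccnd1 ran from 1.58 to 1.69. In a window of 150 bases around the start, 30.8% of members and 1.45% of all genes held E2F-type letters. The spread of the clamp loader genes in DMEM, 1.47-fold by deposited length, was 2.87-fold by the longest protein-coding transcript, an alternative chosen after seeing the data. Genes under about 20 reads, such as Cdc6, Tk1 in DMEM and Cdk6 in DMEM, are limited by depth.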
